A study of Arabidopsis thaliana with 40 samples.

Results

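Heavy polysome RNA was compared with total mRNA in submerged seedlings of the Arabidopsis line K48M, using 4 of the 40 samples of the series. The 4 libraries were chosen by fraction, genotype and condition, as the column headers of the authors' count tables give them. Each fraction had 2 libraries, 1 from a library set named ST_FR and 1 from a set named LTF_GG. K48M is the wild type Col-0 overexpressing SnRK1.1 (KIN10) with the K48M amino acid change; no source used here gives its promoter or the number of independent lines. All seedlings were 9 days old and were harvested whole after 3 h under water in the dark. The comparison groups mentioned below were K48M seedlings after 3 h of dark alone and Col-0 seedlings after the same 3 h of submergence in the dark, each with 2 polysome and 2 total libraries. Of 33309 nuclear genes without ribosomal RNA genes, 23075 had a read in the 4 libraries and 18916 passed the filter for low counts and were tested.

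An mRNA that carries many ribosomes sediments with the heavy polysomes, so the share of an mRNA in that fraction relative to total mRNA is read as its ribosome loading. When plants are flooded, oxygen and energy run short, and most mRNAs leave the polysomes while those for anaerobic metabolism are retained. SnRK1 is the plant kinase related to yeast SNF1 and mammalian AMPK, which senses low energy; the lysine changed in K48M lies in the ATP-binding part of the kinase, and such a change is known to make a kinase inactive, but activity was not measured here. A cap-binding scaffold, eIFiso4G1, is named in the series title together with SnRK1.

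The condition of 1 of the 4 libraries was in conflict. The total RNA library of the LTF_GG set was submerged by the column header and dark-treated by its sample title, and the K48M dark total library of the same set had the opposite conflict. ADH1, the alcohol dehydrogenase of ethanol fermentation and a classical hypoxia gene, stood at 1439.5 CPM (counts per 1e6 reads of the library, after TMM scaling) in the library with the submerged header and at 32.6 CPM in the one with the dark header. The median log2 CPM of 49 hypoxia genes was 7.94 in the former and 4.02 in the latter, so the levels went with the headers, which were used. Results are given without these libraries as well, from a fit of 14 libraries in which K48M submerged total mRNA has 1 library and is assumed to vary like the other groups.

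The libraries held 4.51 and 4.44 M gene reads in polysome RNA and 6.44 and 5.26 M in total mRNA, in the ST_FR and LTF_GG set. This order of the sets is kept for all pairs of values below. Ribosomal RNA genes took 0.647% and 6.66% of the polysome reads and 1.2% and 7.66% of the total reads, so the LTF_GG libraries of both fractions held more. Organelle genes took 0.268% and 6.72% against 0.271% and 7.31%, and both classes were left out. TMM scaling sets the bulk of genes to no difference, so a loss or gain of ribosomes shared by most mRNAs cannot be seen; each difference below is relative to the median gene, at log2 0.00. In bulk RNA, a changed share of cells that express a gene and changed RNA per cell cannot be told apart.

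Some of the transcripts below carry no long reading frame, or a short one, and their sequences are shown for that reason (RefSeq, assembly TAIR10.1). The precursor genes of 3 microRNAs were lower in polysome RNA, and the mature sequences are given 5′ to 3′ with the seed, bases 2 to 8, in capitals. They lie at chr1:24884359-24884382 on the plus strand, chr1:25137519-25137539 on the minus strand, and chr5:4694705-4694725 and chr5:4694778-4694798 on the plus strand. No seed was shared among them, and the counts concern the precursor transcripts, not the mature microRNAs.
miR163: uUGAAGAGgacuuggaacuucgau
miR414: uCAUCUUCaucaucaucguca
miR398c-5p: aGGGUUGAuaugagaacacac
miR398c-3p: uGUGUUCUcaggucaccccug

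The smallest ribosomal protein, RPL41, has 25 residues, and the coding sequences of its 3 measured genes differ at the positions in capitals. They are shown because the genes are so alike that reads may be split between them. Their reading frames of 78 bases each encode the same length of protein.
AT1G56045: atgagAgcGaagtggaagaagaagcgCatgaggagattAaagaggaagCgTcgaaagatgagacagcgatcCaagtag
AT3G11120: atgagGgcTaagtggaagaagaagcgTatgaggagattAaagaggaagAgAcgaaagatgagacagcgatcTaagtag
AT3G56020: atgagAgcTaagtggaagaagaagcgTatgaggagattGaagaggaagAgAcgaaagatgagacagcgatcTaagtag

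A pair of short messages went opposite ways, and their coding sequences are shown with start and stop codons in capitals to let a reader compare them. AT1G54410, a dehydrin of 98 residues (chr1:20310305-20310601, minus strand), was higher in polysome RNA. AT5G21020, a protein of 42 residues (chr5:7139023-7139151, plus strand), was lower.
AT1G54410: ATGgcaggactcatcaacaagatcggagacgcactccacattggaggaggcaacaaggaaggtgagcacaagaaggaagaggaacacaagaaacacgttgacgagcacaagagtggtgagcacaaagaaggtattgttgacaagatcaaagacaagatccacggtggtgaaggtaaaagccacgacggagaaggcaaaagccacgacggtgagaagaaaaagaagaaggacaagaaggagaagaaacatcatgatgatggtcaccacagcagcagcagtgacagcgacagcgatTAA
AT5G21020: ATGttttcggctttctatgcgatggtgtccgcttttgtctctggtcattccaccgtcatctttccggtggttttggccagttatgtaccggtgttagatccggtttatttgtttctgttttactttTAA

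KIN10 lies on the minus strand of chromosome 3, at 31145 to 34670. The stretch around codon 48 of its 512-residue model (chr3:33813-33857) is shown with that lysine codon in capitals, since it is the residue named in K48M. The sequence is the reference one and not that of the transgene.
KIN10: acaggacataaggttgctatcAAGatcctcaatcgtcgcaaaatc

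KIN10 mRNA itself was among the most clearly depleted messages of the polysomes. It was at 416 and 445 CPM in polysome RNA and at 1520.2 and 1683 CPM in total mRNA. Both polysome libraries lay far below both total libraries, and the sets barely differed. The log2 difference, polysome minus total, was -1.89 ± 0.28 (standard error here and below; edgeR quasi-likelihood, Benjamini-Hochberg adjusted p = 0.00775, 2 against 2 libraries), and -1.89 without the libraries in conflict (adjusted p = 0.0105). The 8 Col-0 libraries of the experiment held 28.1 to 39.8 CPM, so all K48M libraries were overexpressing in both fractions. In K48M dark seedlings the difference was -2.40, and in submerged Col-0, where the transcript comes from the native gene, it was -0.01. The difference between K48M and Col-0 under submergence was -1.89 ± 0.39 with an unadjusted p of 0.000183, which did not pass adjustment over all genes in edgeR (adjusted p = 0.997). With DESeq2 it was called, and was the 1 gene called for that difference. KIN10 overlaps AT3G01100 in the annotation, and it had too few uniquely assigned reads to be tested on those alone.

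The other members of the SnRK1 list (kinase subunits and the activating kinases GRIK1 and GRIK2) differed little. Of 9 tested, 1 was lower, KIN10, against 2.69% of all genes called lower and 1.76% called higher. KIN11, the other catalytic subunit, was at 21.6 and 30.2 CPM in polysome RNA and 18.1 and 34.7 CPM in total mRNA, with overlapping groups (log2 0.02). KING1, a gamma-type subunit, had 449 and 389.7 CPM against 328 and 354 CPM and did not pass the test (log2 0.30 ± 0.30, adjusted p = 0.593, edgeR). The list median was 0.16, beside 0.00 over all genes tested.

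**Figure D1:**
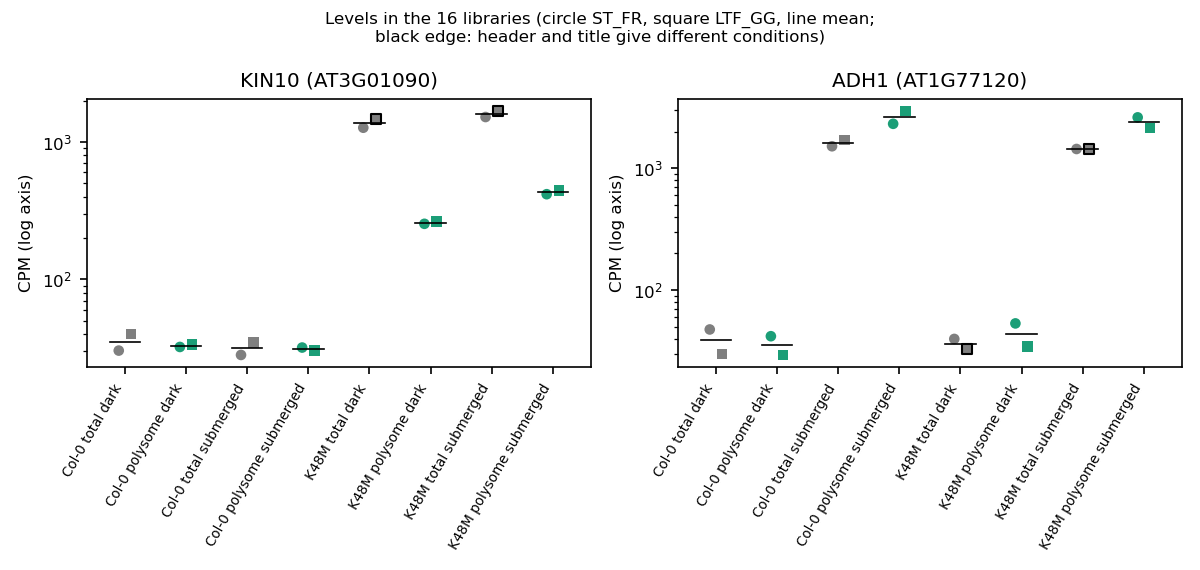
KIN10 and ADH1 levels in CPM after TMM scaling, on a log axis, in each library of K48M and Col-0 by fraction and condition; each point is 1 library, lines are group means, and black edges mark the libraries whose header and title differ. KIN10 in submerged K48M sits at 416 and 445 CPM in polysome RNA, below 1520.2 and 1683 CPM in total mRNA.

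Across the transcriptome, 841 of 18916 genes differed between the fractions, 4.45% of those tested. Of these, 333 were higher in polysome RNA, with a median log2 difference of 1.33 and a range of 0.86 to 3.33, and 508 were lower, with a median of -1.43 and a range of -5.85 to -0.80. Differences over 2-fold were reached by 307 of the higher and 473 of the lower genes, and 90 lower genes passed 4-fold. All 841 had the same sign in both library sets, as 67.2% of all genes did. Polysome and total libraries did not overlap in 831 of them, against 49.1% of all genes. Of the called genes, 35.4% overlap another gene in the annotation, as do 32.0% of those tested, and their reads cannot be told apart without strand. EFS, DRL1, UPL1, WAVE5, PC-MYB1, LGO, TAS1C, TPX2, DEG14, CYP84A4, PFK6, HTA9, LHCA4, PSRP3/1, HSP17.4 and AT5G19510 below are among them. The 10 called genes with overlapping libraries include small heat shock protein genes, whose level differed more between the sets than between the fractions.

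The calls rest on both polysome libraries, and depended more on the LTF_GG total library than on the ST_FR one. Without the ST_FR or the LTF_GG polysome library the same edgeR test called 0 genes, with 2384 and 2963 at an unadjusted p under 0.05. It called 34 without the LTF_GG total library and 742 without the ST_FR total library. With the 2 libraries in conflict left out, 298 genes were higher (1.54% of those tested) and 348 lower (1.80%), of which 121 and 207 were called in the same direction as above. With the conditions of the titles, 56 were higher and 132 lower. The 841 genes kept their sign in both of these fits. Across the 14587 genes with a mean of at least 5 CPM, the difference in the ST_FR set correlated with that in the LTF_GG set at Pearson r = 0.54 and Spearman rho = 0.52; genes are not independent replicates.

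**Figure D2:**
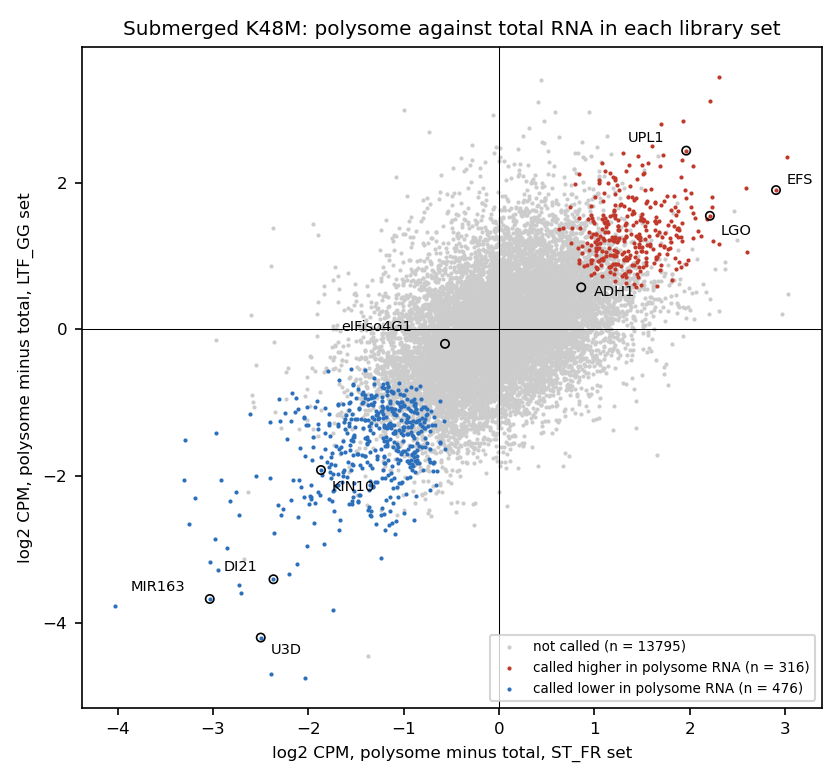
Log2 polysome minus total in the LTF_GG set against the ST_FR set, each point 1 gene with a mean of at least 5 CPM, with genes called higher and lower marked. The called genes lie in the quadrants where both sets have the same sign, and Pearson r across genes with at least 5 CPM is 0.54.

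EFS, UPL1, NERD and KTF1 were among the 10 named genes with the largest enrichment in polysome RNA. EFS, a histone methyltransferase that keeps flowering repressed, was at 29.3 and 26.3 CPM in polysome RNA and at 3.83 and 7.0 CPM in total mRNA. The groups were well apart in both sets, with a log2 difference of 2.42 ± 0.41 (edgeR, adjusted p = 0.01), and 2.75 without the libraries in conflict (adjusted p = 0.0172). UPL1, a HECT-type ubiquitin ligase of 3681 residues, had 29.6 and 48.1 CPM against 7.51 and 8.81 CPM. Its polysome libraries were several times the total ones (log2 2.19 ± 0.47, adjusted p = 0.0219), and it stayed called in the 14 libraries (1.85, adjusted p = 0.0429). NERD, which acts in RNA-directed DNA methylation, had 36.8 and 36.9 CPM against 9.04 and 10.1 CPM (log2 1.94 ± 0.39, adjusted p = 0.0182), and KTF1, another protein of that silencing pathway, 13.0 and 15.6 CPM against 3.37 and 3.63 CPM (2.00 ± 0.43, adjusted p = 0.0216). For both genes the replicates were close and the groups did not overlap; in the 14 libraries KTF1 remained called (adjusted p = 0.0429) and NERD did not (adjusted p = 0.0567).

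The other most enriched named genes had polysome levels of 6.14 to 38.0 CPM. DRL1 (AT4G35420), named in the annotation as dihydroflavonol 4-reductase-like1, was at 6.14 and 10.5 CPM against 1.38 and 1.81 CPM (log2 2.31 ± 0.41, adjusted p = 0.011). The conserved upstream-peptide gene CPuORF8 rose by 2.27, the splicing factor gene PRP39-2 by 2.13, the SCAR-family actin regulator WAVE5 by 1.98 and the MYB factor PC-MYB1 by 1.96 on the log2 scale. LGO, a small cyclin-dependent kinase inhibitor that promotes giant cells in the sepal, was the shortest of the group with a protein of 128 residues, at 38.0 and 22.9 CPM against 8.12 and 7.78 CPM. It rose by 1.91 ± 0.41 (adjusted p = 0.0214). Of these 10 genes, CPuORF8, PRP39-2, WAVE5 and NERD were not called when the libraries in conflict were left out, with log2 values of 1.66 to 2.14.

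The longest proteins gave further examples, named here after their values were seen. AT1G67120, with 5400 residues the longest called, had 14.3 and 12.8 CPM in polysome RNA and 3.83 and 4.15 CPM in total mRNA (log2 1.76 ± 0.37, adjusted p = 0.0215). SYD, a chromatin remodelling ATPase of 3575 residues, had 58.0 and 64.3 CPM against 14.2 and 20.2 CPM (1.84 ± 0.33, adjusted p = 0.0106). TOR, the growth-promoting kinase that acts opposite to SnRK1 in energy signalling, had 22.7 and 47.2 CPM against 11.2 and 19.2 CPM. Its ST_FR and LTF_GG libraries differed within each fraction, but polysome lay above total in both sets and overall (1.16 ± 0.29, adjusted p = 0.0366); in the 14 libraries it was not called (1.01, adjusted p = 0.0984). ACC1, the cytosolic acetyl-CoA carboxylase of fatty acid elongation, had 137 and 102 CPM against 54.7 and 60.6 CPM (1.02 ± 0.27, adjusted p = 0.044; 1.36 and 0.026 in the 14 libraries).

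Protein length separated the called genes. Among 18465 protein-coding genes tested, 327 were higher and 472 lower. The called higher genes encoded a median of 778 residues, the called lower genes 235.5 and all genes 386. Of 2010 genes for proteins of 800 residues or more, 158 (7.86%) were higher and 3 lower. Going down in length, the lower genes made up 0.928% of those with 400 to under 800 residues, 3.36% of those with 200 to under 400, 5.16% of those with 100 to under 200 and 8.77% of those under 100. The median log2 difference in these bins, from the shortest to the longest, was -0.23, -0.15, -0.15, 0.08 and 0.51. The lower medians of short messages were not seen without the libraries in conflict. There the median was 0.14 under 100 residues, 0.080 for 100 to under 200 residues and 0.29 in the longest class.

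The relation to length was stronger in 1 set than in the other. In the LTF_GG set the bin medians ran from -0.63 through -0.38, -0.16 and 0.19 to 0.73. In the ST_FR set they were 0.18, 0.07, -0.12, -0.00 and 0.32, so the longest class was again highest but the shortest was not below the others. Genes of 800 residues or more were positive in both sets in 64.3% of cases, against 34.1% of all genes tested. Across genes, Spearman rho between length and the difference was 0.29, made up of 0.08 in the ST_FR set and 0.42 in the LTF_GG set, and without the libraries in conflict it was 0.07, with a median of 0.29 in the longest class. The number of introns had a rho of 0.25, and its median was 9 in the higher genes, 2 in the lower and 4 in all. Coding sequences of the higher genes had a median of 39.5% G or C at the last codon position, those of the lower 43.9% and all 41.9%. RNA quality was not measured, and its part in the relation to length was not tested.

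**Figure D3:**
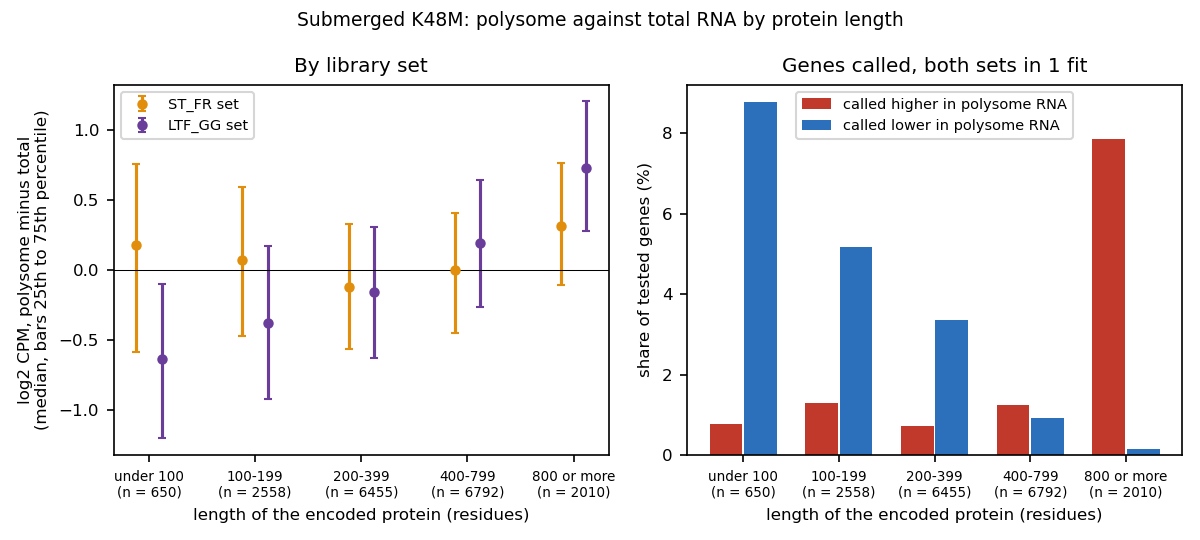
Log2 polysome minus total by protein length in residues, in 5 bins, left as medians over genes for each library set with bars from the 25th to the 75th percentile, and right as the share of tested genes called. In the LTF_GG set the medians run from -0.63 to 0.73, and in the ST_FR set from 0.18 in the shortest to 0.32 in the longest class.

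The same rho was 0.21 in K48M dark seedlings, with -0.03 in the ST_FR set and 0.38 in the LTF_GG set. In submerged Col-0 it was 0.07, with 0.12 and -0.00. Genes are not replicates, and no test was made across them.

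Some short messages were higher in polysome RNA. The dehydrin gene AT1G54410, printed above, stood at 3957 and 2992 CPM in polysome RNA and at 949.8 and 1043 CPM in total mRNA. Dehydrins are hydrophilic proteins made under drought and cold. Both polysome libraries were well above both total libraries (log2 1.84 ± 0.44, adjusted p = 0.0312; 1.75 and 0.0372 in the 14 libraries). CCL, which is clock-controlled, had 1532 and 1277 CPM against 309 and 572 CPM (1.81 ± 0.44, adjusted p = 0.0326), and UBC29, a ubiquitin-conjugating enzyme, 72.3 and 56.1 CPM against 19.9 and 18.9 CPM (1.72 ± 0.26, adjusted p = 0.00775). In all, 38 higher genes encoded fewer than 200 residues. Higher genes were 0.769% of those tested under 100 residues and 1.29% of those of 100 to under 200. Of all protein-coding genes tested, 1.77% were higher. The examples named here were chosen after their values were seen. The 3 lower genes of 800 residues or more were AT5G46490, FIP1[V], a polyadenylation factor, and ANL2, a homeodomain factor of anthocyanin and root patterning, at -1.74, -1.04 and -0.98.

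**Figure D4:**
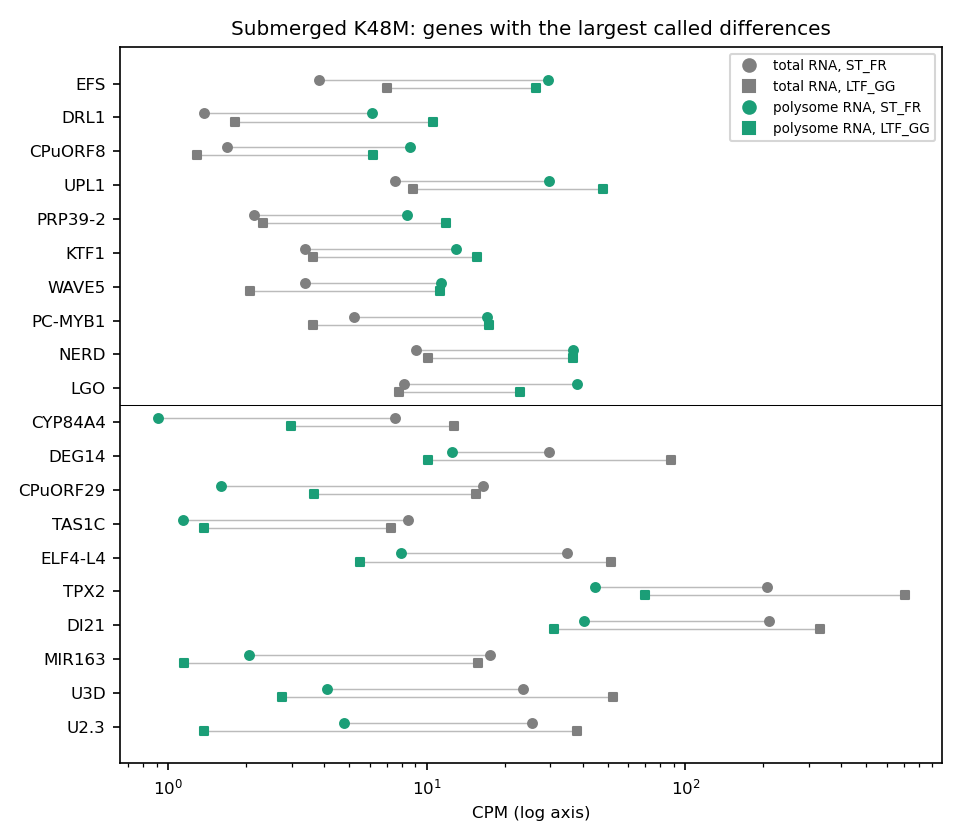
CPM after TMM scaling, on a log axis, of the 10 most enriched and 10 most depleted named genes in the 2 polysome and 2 total libraries of submerged K48M; each point is 1 library, and lines join the libraries of a set. EFS, UPL1 and NERD lie higher in polysome RNA, and DI21 and MIR163 lower, without overlap of the fractions.

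Non-coding transcripts of some types were depleted from polysomes. Of 208 tested, 28 (13.5%, against 2.69% of all genes) were lower and 2 higher, and the median was -0.67, with -0.86 in the ST_FR set, -0.64 in the LTF_GG set and -0.64 without the libraries in conflict. By annotated type, 17 of 81 ncRNA genes, 6 of 109 lncRNA genes, 3 of 9 miRNA precursors, 1 of 6 snRNA genes and 1 of 2 snoRNA genes were lower. The median was -1.06 for the ncRNA genes. For the lncRNA genes it was -0.02, with 54 positive and 55 negative, so these as a group stood evenly between the fractions. AT1G10682, an RNA gene of no stated function, had the lowest adjusted p of all genes and is named for that, after its values were seen. It was at 20.5 and 26.6 CPM in polysome RNA and at 136 and 154 CPM in total mRNA (log2 -2.63 ± 0.28, adjusted p = 0.00111, edgeR; 0.00551 in the 14 libraries).

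The largest folds by the naming rule belonged to AT1G15405, U2.3 and U3D. U2.3, a U2 spliceosomal RNA, had 4.77 and 1.37 CPM against 25.4 and 38.1 CPM (log2 -3.88 ± 0.90, adjusted p = 0.0297). U3D, a snoRNA of ribosomal RNA processing, had 4.09 and 2.75 CPM against 23.6 and 52.4 CPM (-3.83 ± 0.89, adjusted p = 0.0295). For AT1G15405 the total libraries were far from each other, at 39.4 and 175 CPM, above 9.55 and 6.41 CPM in polysome RNA (-4.35 ± 1.07, adjusted p = 0.0344). Without the libraries in conflict none of these 3 was called, at -1.18 for AT1G15405, -2.16 for U2.3 and -1.89 for U3D. U2.3, U3D and AT1G15405 each overlap another gene, and no source used here states whether the libraries kept strand.

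MIR163, whose sequence is given above, was at 2.05 and 1.14 CPM against 17.5 and 15.8 CPM. Replicates were close in both fractions, and the difference was -3.44 ± 0.66 (adjusted p = 0.0162; -2.90 and 0.0414 in the 14 libraries). MIR398c, the precursor of a microRNA that targets copper superoxide dismutases, had 2.05 and 4.12 CPM against 13.0 and 9.33 CPM (-1.84 ± 0.45, adjusted p = 0.0335; 0.0304 in the 14 libraries). MIR414 had 9.55 and 7.78 CPM against 21.8 and 22.5 CPM (-1.37 ± 0.28, adjusted p = 0.0197; 0.0571 in the 14 libraries). TAS1C, a source of trans-acting small RNAs, had 1.14 and 1.37 CPM against 8.43 and 7.26 CPM, again without overlap (-2.62 ± 0.47, adjusted p = 0.011; 0.0137 in the 14 libraries). In polysome RNA, MIR163 and TAS1C lay near the read floor, as 3 reads came to 0.682 and 0.687 CPM there. The 2 non-coding genes that were higher, AT1G72855 and AT1G29357, overlap other genes.

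Among protein-coding genes, DI21, a drought-induced protein of 104 residues, was the most depleted by the naming rule. It was at 40.7 and 31.1 CPM in polysome RNA and at 210.2 and 332 CPM in total mRNA. The fractions were more than 4-fold apart in each set, with a log2 difference of -3.0 ± 0.48 (adjusted p = 0.00775; -2.12 and 0.016 in the 14 libraries). ELF4-L4, a relative of the clock protein ELF4, had 7.96 and 5.49 CPM against 34.8 and 51.6 CPM (-2.66 ± 0.42, adjusted p = 0.00775; 0.0224 in the 14 libraries). TPX2 (AT1G65970), a thioredoxin-dependent peroxidase, had 44.6 and 69.8 CPM against 206 and 704 CPM; its total libraries differed widely (-2.92 ± 0.65, adjusted p = 0.0247; -1.87 and 0.118 in the 14 libraries). The upstream-peptide gene CPuORF29 fell by 2.58, the protease gene DEG14 by 2.50 and the cytochrome P450 gene CYP84A4 by 2.37 on the log2 scale, of which CPuORF29 alone stayed called in the 14 libraries (adjusted p = 0.0278). AT5G21020, of 42 residues, had 123 and 141 CPM against 408 and 648 CPM (-2.01 ± 0.37, adjusted p = 0.0118; 0.0337 in the 14 libraries).

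Genes of hypoxia as a group stood evenly between the fractions. Of 49 tested, 1 was higher and 1 lower (2.04% each, near the 1.76% and 2.69% of all genes), 25 had a positive and 24 a negative difference, and the median was 0.01, with 0.05 and -0.04 in the sets; it was 0.20 in the 14 libraries, where 3 were higher and 2 lower, and 1.07 with the conditions of the titles. PFK6, a phosphofructokinase of glycolysis, was the higher one, at 93.4 and 63.4 CPM in polysome RNA against 36.9 and 21.8 CPM (log2 1.41 ± 0.30, adjusted p = 0.0215; 1.14 and 0.0759 in the 14 libraries). AT5G42200, a RING-type ubiquitin ligase gene, was the lower one, at 23.4 and 16.9 CPM against 34.6 and 52.9 CPM (-1.10 ± 0.29, adjusted p = 0.0408; -0.69 and 0.155 in the 14 libraries). Neither pair of fractions overlapped.

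ADH1 was at 2616 and 2138 CPM in polysome RNA and at 1439 and 1439.5 CPM in total mRNA. Both polysome libraries were higher, but the difference did not pass the test (0.71 ± 0.34, adjusted p = 0.222, edgeR). Its reads may include those of AT1G77122, which it overlaps. None of the 12 fermentation genes tested was called, and their median was 0.22. The pyruvate decarboxylase gene AT4G33070, which feeds ethanol fermentation, had 654 and 762 CPM against 693 and 1076 CPM (-0.34 ± 0.46, adjusted p = 0.699), and its sign turned to positive in the 14 libraries (0.20). SUS4, a sucrose synthase induced by low oxygen, stood at 267 and 264 CPM against 85.9 and 176 CPM without overlap (1.09 ± 0.31, adjusted p = 0.0561; 1.44 and 0.0313 in the 14 libraries).

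The group VII ERF factors, which turn on hypoxia genes when oxygen falls, held 1 lower member of 5, beside 2.69% of all genes. EBP, also an ethylene-responsive factor, was at 104 and 85.9 CPM in polysome RNA and at 291 and 201 CPM in total mRNA. The fractions did not overlap, and the difference was -1.35 ± 0.29 (adjusted p = 0.0216; -1.38 and 0.0304 in the 14 libraries). RAP2.2 and RAP2.12 had differences of -0.47 and 0.06, and ERF73 and ERF71, which are hypoxia-induced themselves, 0.63 and 0.70; none of these 4 passed the test. ERF71 differed between the sets (1.33 and 0.21) and was called higher in the 14 libraries (1.36, adjusted p = 0.0399).

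Of 23 heat shock genes, 4 were higher and 0 lower (17.4% against 1.76% of all genes), with a list median of 0.42 and of 0.34 in the 14 libraries. All 4 encode cytosolic small heat shock proteins, chaperones that hold unfolding proteins. HSP17.6II was at 261 and 46.5 CPM in polysome RNA and at 87.2 and 14.5 CPM in total mRNA. The ST_FR libraries were several-fold above the LTF_GG ones in both fractions, so the groups overlap across sets although polysome exceeded total within each (log2 1.61 ± 0.26, adjusted p = 0.00808; 1.45 and 0.0218 in the 14 libraries). HSP17.4 had 379 and 81.3 CPM against 104 and 31.4 CPM (1.61 ± 0.37, adjusted p = 0.028; 2.05 and 0.0226 in the 14 libraries), AT1G53540 rose by 1.29 and AT1G07400 by 1.11, and these last genes were not called in the 14 libraries (adjusted p = 0.0714 and 0.102). There 3 of the list were higher, the third being HSP17.6A (2.01, adjusted p = 0.0271; 1.39 and 0.0602 with all libraries). Small heat shock genes have close copies, so reads may be shared between them. On uniquely assigned reads HSP17.6II was at 1.63, HSP17.4 at 1.64, AT1G53540 at 1.32 and AT1G07400 at 1.14, and all 4 were called. The larger chaperones HSP70 (0.96), HSP101 (0.83) and HSP90.1 (0.73) did not pass the test.

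**Figure D5:**
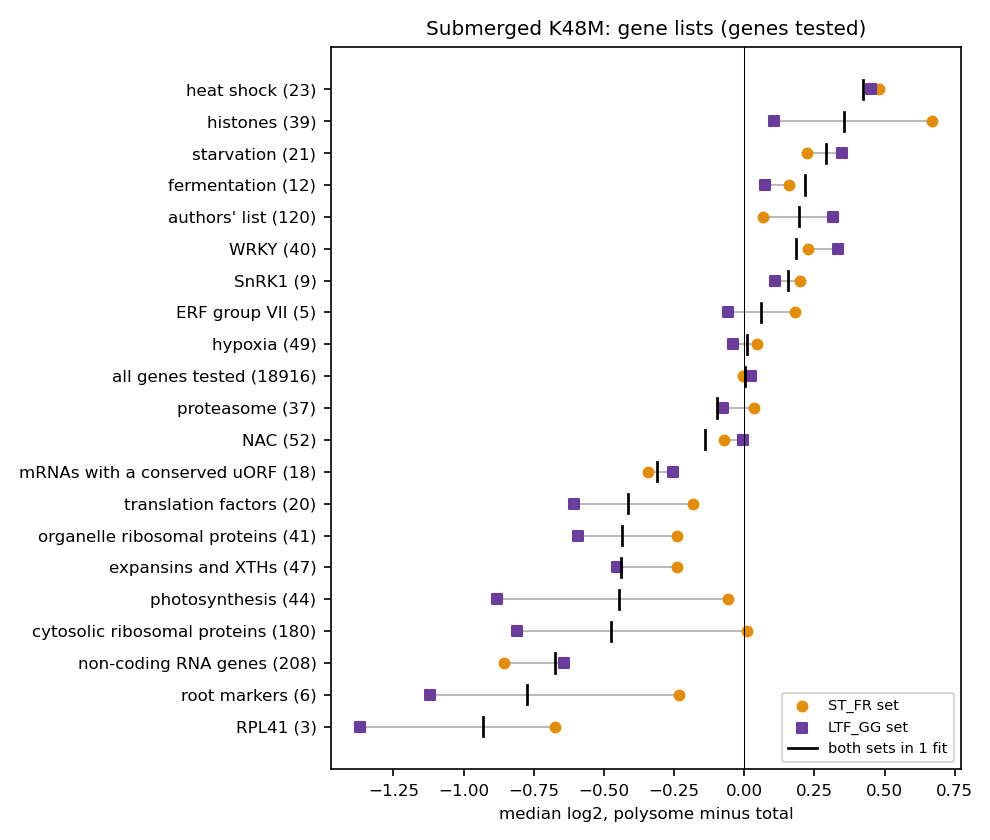
Median log2 polysome minus total of each gene list, with the number of genes tested in parentheses; circles are the ST_FR set, squares the LTF_GG set and ticks the fit of both. Non-coding RNA genes have a median of -0.67, cytosolic ribosomal protein genes -0.48 and heat shock genes 0.42.

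Genes of the translation machinery had medians below 0 in the fit of both sets. These medians were well below 0 in the LTF_GG set, but that of the cytosolic ribosomal protein genes was not below 0 in the ST_FR set. Of 180 cytosolic ribosomal protein genes, 6 (3.33%, against 2.69% of all genes) were lower and 0 higher; in the 14 libraries 3 were lower and 3 higher. The median was -0.48, with 0.01 in the ST_FR set and -0.81 in the LTF_GG set, and it was 0.03 without the libraries in conflict. RPS15A had 261 and 143 CPM in polysome RNA against 562 and 735 CPM (log2 -1.87 ± 0.45, adjusted p = 0.0312). AT5G67510, described as a translation protein of the SH3-like family, had 29.1 and 22.2 CPM against 64.7 and 142 CPM (-2.03 ± 0.42, adjusted p = 0.0195), and neither was called in the 14 libraries. Of the RPL41 genes printed above, 3 of 5 were tested and none was called, with -1.76 for AT3G56020, -0.93 for AT3G11120 and -0.71 for AT1G56045. In the 14 libraries these were -0.45, -0.36 and -0.70. On uniquely assigned reads of all libraries they were -1.73, -0.90 and -0.69, and there AT3G56020 was called lower (edgeR, adjusted p = 0.0477).

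Of 20 translation factor genes, 2 (10%, against 2.69% of all genes) were lower and 0 higher, with a median of -0.42 and of -0.02 in the 14 libraries. TCTP, a conserved growth-related protein, had 541 and 478 CPM against 1578 and 2503 CPM. Total mRNA lay far above polysome RNA in both sets (-2.04 ± 0.42, adjusted p = 0.0199; -1.36 and 0.0271 in the 14 libraries). The EF1B subunit gene AT5G19510 had 499.7 and 294 CPM against 980.5 and 1396 CPM (-1.75 ± 0.44, adjusted p = 0.0366; -0.80 and 0.151 in the 14 libraries). eIFiso4G1 was at 73.2 and 63.6 CPM in polysome RNA and at 108 and 73.1 CPM in total mRNA, with the ST_FR polysome and LTF_GG total library nearly equal (-0.40 ± 0.26, adjusted p = 0.378).

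Among 44 photosynthesis genes, 5 (11.4%, against 2.69% of all genes) were lower and 0 higher, but the sign of the median changed with the libraries in conflict. The median was -0.44, with -0.06 in the ST_FR set and -0.88 in the LTF_GG set, and it was 0.18 without the libraries in conflict, where 7 genes were higher and 2 lower, beside 1.54% and 1.80% of all genes. The summed level of these genes was 116965 and 91662 CPM in polysome RNA and 120691 and 208051 CPM in total mRNA, so the LTF_GG total library stood apart; its part in the result was not tested. LHB1B1, a chlorophyll-binding antenna protein, had 275 and 525 CPM against 1009 and 2521 CPM and was also called in the 14 libraries (-2.09 ± 0.43, adjusted p = 0.0196; -1.66 and 0.026). LHCA4, an antenna protein of photosystem I, had 1806 and 1373 CPM against 4626 and 5754 CPM and was called in both fits too (-1.76 ± 0.45, adjusted p = 0.0372; -1.18 and 0.0389). CAB3, GAPB and GAPA, with differences of -2.22, -2.02 and -1.92, were not called in the 14 libraries.

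Of 41 genes for ribosomal proteins of plastids and mitochondria, 1 was higher (2.44%) and 3 lower (7.32%), beside 1.76% and 2.69% of all genes. The median was -0.44, with -0.24 in the ST_FR set and -0.59 in the LTF_GG set, and -0.19 in the 14 libraries. PSRP3/1, a plastid ribosomal protein, was the higher one with 469 and 341 CPM against 147 and 167 CPM (1.33 ± 0.35, adjusted p = 0.0415; 1.76 and 0.0119 in the 14 libraries). SSR16, AT2G43030 and AT1G70190 were the lower ones, at -2.07, -2.02 and -1.18, and of these SSR16 and AT1G70190 stayed called in the 14 libraries.

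Histone genes, whose messages end without the usual tail in animals but are polyadenylated in plants, held 2 higher (5.13%) and 1 lower (2.56%) member of 39, beside 1.76% and 2.69% of all genes. The median was 0.35, with 0.67 in the ST_FR set and 0.10 in the LTF_GG set, and 0.58 in the 14 libraries, where 12 were higher and 0 lower, beside 1.54% and 1.80% of all genes. AT1G09200, a histone superfamily protein, had 224 and 165 CPM in polysome RNA against 63.4 and 104 CPM (1.21 ± 0.33, adjusted p = 0.0466; 1.75 and 0.0105 in the 14 libraries), and HTA10, an H2A histone, 165 and 105 CPM against 61.0 and 70.0 CPM (1.01 ± 0.28, adjusted p = 0.0486). HTA9, another H2A gene, went the other way with 107 and 87.5 CPM against 214 and 221 CPM, without overlap (-1.16 ± 0.29, adjusted p = 0.0344; 0.051 in the 14 libraries).

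Starvation genes, which are switched on in darkness and by low sugar, held 1 higher member of 21 (4.76%, against 1.76% of all genes) and a median of 0.29, which was 0.083 in the 14 libraries, where 0 were called. SEN1 (AT4G35770), a senescence-associated dark-inducible gene, was at 3670.0 and 2905 CPM in polysome RNA against 1002 and 1214 CPM, with replicates close (1.62 ± 0.43, adjusted p = 0.0435; 1.56 and 0.0596 in the 14 libraries). The asparagine synthetase gene ASN1, a reporter of SnRK1 activity, had 232 and 449 CPM against 272 and 651 CPM, with overlapping groups (-0.33 ± 0.63, adjusted p = 0.796).

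The remaining family and pathway lists held at most 1 called member each. NAC factors had 1 lower gene of 52 (1.92%), NAC075 at -1.91, and expansin and XTH genes of the cell wall 1 lower of 47 (2.13%), EXPA10 at -1.81, beside 2.69% of all genes. In the 14 libraries NAC075 was not called, EXPA10 was, and the expansin and XTH median went from -0.44 to -0.20. No WRKY factor of 40, no proteasome subunit gene of 37 and no gene with a conserved upstream reading frame of 18 was called, with medians of 0.19, -0.10 and -0.31; in the 14 libraries 1, 2 and 1 were higher and 0 lower. The upstream-peptide genes CPuORF8, called higher, and CPuORF29, called lower, are not among those 18. The 6 root markers were not called, and their sum was 115 and 256 CPM in polysome RNA and 112 and 254 CPM in total mRNA. Of 128 genes in a list from the authors' deposited table, 120 were tested, of which 4 were higher (3.33%) and 2 lower (1.67%), beside 1.76% and 2.69% of all genes, with a median of 0.20; the list was made with these samples and is not independent evidence. The authors' deposited table also holds a translational status score for 533 genes in this group, of which 481 were tested here; across genes the score and the log2 difference had a Spearman rho of 0.78, and both use these libraries. The scores in the authors' deposited table were all negative (-6.22 to -0.50, median -3.51), so 299 of the 481 genes had the same sign as here. The formula and log base of that score in the authors' deposited table are not stated.

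The fraction difference was then set beside that of the other groups in 1 model. In K48M dark seedlings 351 genes were higher (1.86%) and 576 lower (3.05%), together 4.9% of those tested, and in submerged Col-0 10 were higher (0.0529%) and 32 lower (0.169%), together 0.222%. These counts do not show a difference, which was tested directly. For K48M submerged minus K48M dark, edgeR called 0 genes (0.0%), with 217 below 0.05 before adjustment, and DESeq2 called 0, with 135. For K48M submerged minus Col-0 submerged, edgeR called 0 genes (0.0%), with 570 below 0.05 before adjustment, while DESeq2 called KIN10 alone (1 gene).

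By lowest p, the genes nearest to a difference between submerged and dark K48M were MIR398c, SIG4 and CYCA2;4. MIR398c was at -1.84 under submergence and at 0.46 in the dark, a difference of -2.30 ± 0.60 (unadjusted p = 0.00143, edgeR). SIG4, a plastid sigma factor, was at 0.11 and 1.53 (-1.43 ± 0.40), and CYCA2;4, an A-type cyclin, at 1.60 and -0.45 (2.05 ± 0.60). Against submerged Col-0 they were KIN10, DRL1 and NAP5; DRL1 was at 2.31 in K48M and 0.23 in Col-0 (2.08 ± 0.54) and NAP5, an ABC-type protein of low counts, at 2.40 and -0.97 (3.37 ± 0.88). None of these passed adjustment over all genes.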

How the data were processed

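Whole-number read counts per transcript model were deposited by the authors for each library on the TAIR10 build, per the submitters' processing notes. No source used here names the aligner or states strandedness. The counts used were the total gene reads. The translational status score and a list of genes with log2 fold changes came from the authors' deposited tables. The 41660 models were added up into 33592 genes, and 32825 of these had an entry in TAIR10.1. The 279 organelle and 4 rRNA genes were left out, as were 11 rows per table with removed identifiers, at most 0.0084% of a library's reads.

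All 16 libraries of the first experiment (8 groups of 2) entered 1 edgeR 4.0.16 quasi-likelihood model in R 4.3.3, with TMM scaling, filterByExpr (minimum count 10, total 15), a term for the 2 library sets and 7 residual degrees of freedom. An adjusted p (Benjamini-Hochberg over 18916 genes) under 0.05 was a call. Biological variation between replicates came to 22.3%. Standard errors were taken as the size of the log2 difference over the square root of F. Repeats are independent per the series text, but no culture or animal is named, so p-values measure the spread between these libraries. The headers' conditions were used throughout. Gene reads were 4.44 to 6.44 M in the 4 libraries, and 3 reads came to 0.460 to 0.778 CPM; these limits cover counting error only. On simulated counts for this comparison (18601 genes run), 13% of 100 genes changed 2-fold and 73% of 100 changed 4-fold were called, with 6 of 18403 unchanged genes.

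The members and gene lists were chosen with earlier results of these data known. Named genes were KIN10, eIFiso4G1 and ADH1; the 10 largest called folds in each direction with a symbol, a mean of at least 5 CPM in the higher fraction and the same sign in both sets; in each list up to 3 called members per direction, or the 2 most abundant; the 3 lowest p per interaction; and RPL41. Other genes named fall outside this rule and were picked with their values known. This holds also where the text does not say so, such as for KIN11, KING1, SUS4, HSP17.6A and ASN1. Alternatives included DESeq2 1.42.0, other scalings, filters and libraries left out.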

Additional observations from a re-analysis of the deposited data

Results flagged for a closer look

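The medians of some gene lists lay on opposite sides of 0 in submerged K48M and in another group, in both library sets of each; these differences were not tested. The SnRK1 list had a median log2 polysome minus total of 0.16 in submerged K48M and of -0.25 in K48M dark seedlings. The photosynthesis list was at -0.44 in submerged K48M and at 0.31 in submerged Col-0, the root markers at -0.77 and 0.51, and the translation factors at -0.42 and 0.19. The root marker list is short and holds genes near the read floor. IRT1 had 0 CPM in both polysome libraries of submerged K48M and 0.15 and 0.52 CPM in total mRNA. MRN1 had 0.23 and 0.46 CPM against 0.15 and 1.56 CPM. The most abundant marker was at 0.12, and the list sums were nearly equal in the fractions, as given above. The photosynthesis and translation factor medians of submerged K48M changed when the libraries in conflict were left out, and the part of each library was not tested. Without the libraries in conflict they were 0.18 and -0.02, while the root markers were at -0.72 and the SnRK1 list at 0.15.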

How the results depend on the processing

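The count of 841 called genes (333 higher, 508 lower) was 11 (0 and 11) without the replicate block, 188 (56 and 132) with the conditions of the titles, and 1343 (503 and 840) with DESeq2; leaving out 1 library of the comparison gave 0 to 742. It was within 1.5 times of 841 with the libraries in conflict left out (646), upper-quartile scaling (835), no count filter (1141), unique reads (1033), organelle and rRNA genes kept (739) and the 4 libraries alone (879). All 841 kept their sign without the block, with the titles, in the 14 libraries and with DESeq2; with unique reads 761 of them were tested and 757 kept it. Both interactions gave 0 calls under every edgeR alternative, and DESeq2 gave 0 for the dark contrast and 1 for the Col-0 contrast. The set names pair libraries only by name: deviations from group means correlated at r = -0.09 to 0.73 over 28 pairs of groups and 14810 genes, above 0.1 in 22, and at 0.33 for the 2 groups compared.

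List medians without the libraries in conflict were -0.082 for NAC, 0.28 for WRKY, -0.20 for expansins and XTHs, 0.34 for heat shock, 0.20 for hypoxia, 0.18 for photosynthesis, 0.11 for the proteasome, 0.083 for starvation and -0.024 for translation factors. For cytosolic ribosomal proteins the median there was 0.03, and for organelle ribosomal proteins -0.19. It was 0.58 for histones, -0.45 for RPL41 and 0.20 for ERF group VII. Named genes that were not called changed sign as follows. With the titles these were WRKY7 (0.65), SAMDC (-0.069), bZIP2 (0.17), AT4G33070 (1.20) and SIG4 (-0.11). In the 14 libraries they were WRKY7 (0.20), bZIP2 (0.24), AT4G33070 (0.20) and RPT3 (0.20), and with unique reads PBE1 (-0.90). With 1 library of the comparison left out in turn, the values ran from -0.63 to 0.20 for WRKY7, from -0.66 to 0.17 for bZIP2, from -0.79 to 0.28 for AT4G33070, from -0.76 to 0.15 for RPT3, from -1.04 to 0.083 for CYP705A5, from -0.26 to 0.47 for PBE1, and from -0.35 to 0.68 for PHT1;1. The rho of protein length, added after seeing the data, was 0.07 in the 14 libraries, 0.11 to 0.39 with 1 library left out, and 0.29 to 0.32 otherwise. The cause of these changes was not tested. At these depths, 2-fold changes were mostly below what the test could call.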

Other observations

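Further genes with low adjusted p, chosen after their values were seen, fell outside the lists. AGL31, a MADS-box repressor of flowering, was at 55.0 and 70.5 CPM in polysome RNA and at 17.6 and 21.3 CPM in total mRNA. The fractions did not overlap (log2 1.68 ± 0.29, edgeR quasi-likelihood, adjusted p = 0.01; 1.54 and 0.0247 in the 14 libraries). UBC17, a ubiquitin-conjugating enzyme like UBC29, had 75.2 and 104 CPM against 25.7 and 40.7 CPM (1.45 ± 0.24, adjusted p = 0.01; 1.52 and 0.0215 in the 14 libraries). FYPP1, a catalytic subunit of a PP6-type phosphatase, went the other way with 16.4 and 13.3 CPM against 51.2 and 51.6 CPM (-1.80 ± 0.26, adjusted p = 0.00775; -1.69 and 0.012 in the 14 libraries).

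AT1G07590 was among the most abundant depleted genes, at 507 and 796 CPM in polysome RNA and 3909 and 7718 CPM in total mRNA (log2 -3.14 ± 0.67, adjusted p = 0.0216; -2.74 and 0.048 in the 14 libraries). It overlaps AT1G07600, the short metallothionein gene MT1A in the annotation, which was not among the genes tested. Which of the genes the reads came from was not tested.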
